A study of Mus musculus with 50 samples.

Results

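Mef2c, Igfbp6 and Tnnc1 are 3 genes chosen by their signal on these arrays, which was much higher in neocortex than in hippocampus. On the oligonucleotide array they are read by 6 of 12488 probe sets, of which 4 belong to Mef2c and 1 each to Igfbp6 and Tnnc1. A probe set was taken when the platform annotation gave it a member as its single gene symbol, and all 6 passed the filter on low signals. The series names 8251 genes in this way. Because the regional difference chose the genes, it is described below without a test, and the question put to it is whether it held in each genotype.

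Each array held RNA of the neocortex or the hippocampus of a mouse aged 8 weeks. S1P2-KO mice (10 arrays per tissue) lack a receptor for the lipid sphingosine 1-phosphate and have sporadic seizures between 4 and 7 weeks of age. S1P3-KO mice (5 arrays per tissue) lack a related receptor and have no such seizures, and wild-type (WT) mice gave 10 arrays per tissue. In each tissue 5 S1P2-KO arrays were of males and 5 of females, as for WT, and 2 S1P3-KO arrays were of males and 3 of females. The labels call the replicates biological, name no strain, no construction of the deletions and no treatment, and do not say which arrays of the 2 tissues came from the same mouse.

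Mef2c encodes a MADS-box transcription factor that drives muscle and neuronal differentiation and takes part in setting the number of excitatory synapses. Igfbp6 encodes a secreted protein that binds insulin-like growth factors, with a preference for IGF2, and keeps them from their receptor. Tnnc1 encodes the calcium-binding troponin C of heart and slow skeletal muscle, an EF-hand protein that switches the thin filament on. MEF2 factors are regulated by calcium-dependent kinases and by the phosphatase calcineurin.

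The sequences before the transcription start sites are shown because the 3 genes were high in the same tissue, so that a reader can compare what lies upstream of them. Mef2c lies on chromosome 13, Igfbp6 on chromosome 15 and Tnnc1 on chromosome 14. The RefSeq promoter table (build GRCm38.p6) holds 3 start sites of Mef2c and 1 each of Igfbp6 and Tnnc1, all on the plus strand, and the 250 bases before the first start of each gene are given from 5′ to 3′. They lie at chr13:83503784-83504033 for Mef2c, at chr15:102143936-102144185 for Igfbp6 and at chr14:31208062-31208311 for Tnnc1. Capitals mark matches, on either strand, to any of 5 motifs that were searched.
Mef2c: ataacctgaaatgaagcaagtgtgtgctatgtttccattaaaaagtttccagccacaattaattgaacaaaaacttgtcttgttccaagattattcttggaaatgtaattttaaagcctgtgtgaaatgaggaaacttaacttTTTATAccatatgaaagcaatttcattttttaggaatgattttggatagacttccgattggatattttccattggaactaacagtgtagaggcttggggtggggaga
Igfbp6: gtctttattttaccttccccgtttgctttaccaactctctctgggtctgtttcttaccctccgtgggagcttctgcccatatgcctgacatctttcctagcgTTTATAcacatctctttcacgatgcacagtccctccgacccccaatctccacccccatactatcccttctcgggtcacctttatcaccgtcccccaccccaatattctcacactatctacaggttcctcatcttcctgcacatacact
Tnnc1: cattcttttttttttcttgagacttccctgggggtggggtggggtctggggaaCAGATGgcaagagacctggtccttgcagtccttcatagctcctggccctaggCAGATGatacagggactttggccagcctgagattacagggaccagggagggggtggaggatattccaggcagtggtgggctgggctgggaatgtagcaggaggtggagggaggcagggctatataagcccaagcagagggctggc

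The motifs were the MEF2 core (CTA and TAG with any 4 bases between them), the TATA box TATAAA, the E-box CAGATG, the cyclic AMP response element TGACGTCA and the GC box GGGCGG, and none of the matches marked overlap. The MEF2 core was in none of the 5 windows and in 3.2% of the 32851 windows of the table, and TGACGTCA was likewise in none of the 5 and in 1.55% of all. TATAAA was matched only on the strand opposite to the genes, as TTTATA. It began 107 bases before the first start of Mef2c, 22 bases before its second start and 148 bases before the start of Igfbp6, and 12.4% of all windows hold it. Only exact strings were searched, so a looser form such as tatataag near the end of the Tnnc1 window was not marked. A match, or its absence, does not show whether a TATA box is in use. CAGATG stood 197 and 145 bases before the start of Tnnc1 and 245 bases before the third start of Mef2c, and 14.4% of all windows hold it. GGGCGG stood 10 bases before the second start of Mef2c, against 32.7% of all windows. The share of G and C was 33.6% in the Mef2c window shown, 49.6% in that of Igfbp6 and 57.6% in that of Tnnc1, beside a median of 52.4% over all windows.

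Signals were scaled by the authors with MAS5 to a trimmed mean of 1000.56 to 1000.66 on every array, and log2 differences below are of log2(signal + 30.7). Most markers called ran with the labels of the dissections. Of 15 neocortical projection neuron markers tested in WT mice 9 were higher and 2 lower in neocortex (limma, adjusted p under 0.05). Of 13 hippocampal markers 1 was higher and 10 lower, beside 6.74% higher and 7.83% lower of all probe sets. Those called against their label were Crym and Neurod6 of the neocortical list, at -1.85 and -1.35, and Tyro3 of the hippocampal list, at 0.98. Tbr1, a transcription factor of deep-layer cortical neurons, had a signal between 4599 and 9264 in neocortex and between 1522 and 4217 in hippocampus. The targeted genes did not pass in their knockouts: S1pr2 differed by -0.10 ± 0.14 (SE) in S1P2-KO minus WT neocortex and by -0.24 ± 0.16 in hippocampus, and S1pr3 by -0.26 ± 0.17 in S1P3-KO minus WT neocortex and by -0.69 ± 0.18 in hippocampus, with adjusted p from limma of 0.164 or more. Whether either probe set lies in the deleted part is not given in the sources used here, so the genotypes rest on the labels. The log2 of 3′ over 5′ signal in the Gapdh and beta-actin controls, which is raised by degraded RNA, was above 1 on 3 arrays, all of hippocampus: 4.46 on S1P3-KO replicate 5, 1.37 on S1P2-KO replicate 7 and 1.20 on WT replicate 4.

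Mef2c was bright in neocortex in every genotype. Its brightest probe set, 104590_at, had a signal of 5193 to 7765 (median 7225) in the 10 S1P2-KO neocortex arrays. In the 5 S1P3-KO neocortex arrays it read 5564, 5887, 7467, 4632 and 4705. The 10 WT neocortex arrays lay between 5748 and 8471 (median 7678). In neocortex its levels thus scattered little, by at most 1.83-fold between the highest and the lowest of 25 arrays.

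The hippocampus was lower and far more uneven on this probe set. The 10 S1P2-KO hippocampus arrays ran between 13.4 and 1804 (median 1143). The 5 S1P3-KO hippocampus arrays read 398.0, 1006, 124.2, 127.2 and 124.3. The 10 WT hippocampus arrays ran between 143.9 and 2017 (median 1212). Every neocortex array lay above every hippocampus array, with a gap of 2.30-fold between the lowest of the neocortex (4632) and the highest of the hippocampus (2017), while the genotypes overlapped within the hippocampus.

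**Figure D1:**
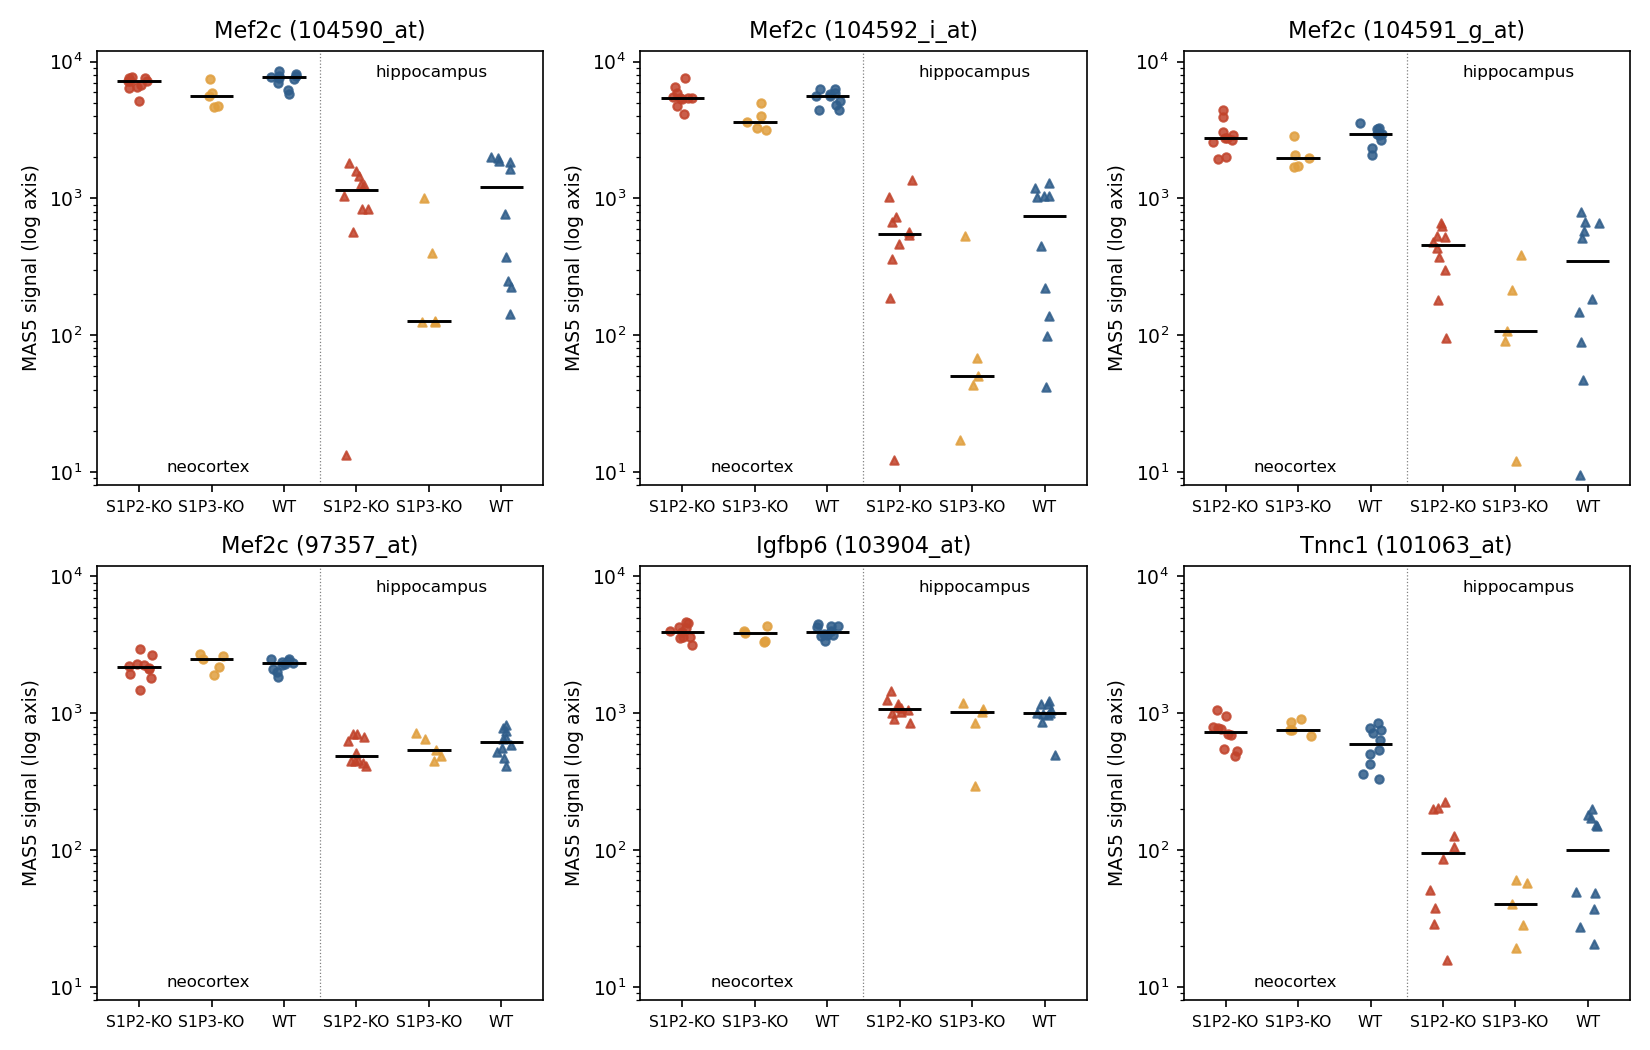
MAS5 signal (log axis) of the 6 probe sets of Mef2c, Igfbp6 and Tnnc1 on all 50 arrays, with circles for neocortex and triangles for hippocampus of S1P2-KO, S1P3-KO and WT mice and bars for group medians. All neocortex arrays lie above all hippocampus arrays on each probe set, and the first 3 probe sets of Mef2c span 150.5-fold, 111.3-fold and 83.2-fold in hippocampus.

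The neocortex minus hippocampus difference of 104590_at was 3.06 ± 0.43 (SE) on the log2 scale in S1P2-KO mice, 4.25 ± 0.61 in S1P3-KO mice and 3.22 ± 0.43 in WT mice, which are folds of 8.33, 19.0 and 9.30. Among all 8534 probe sets tested, ordered by this difference, it had rank 2 in S1P2-KO, rank 2 in S1P3-KO and rank 3 in WT mice. Probe sets 104592_i_at and 104591_g_at of the same gene gave 3.58 ± 0.44 and 2.82 ± 0.38 in S1P2-KO, 5.03 ± 0.63 and 3.76 ± 0.54 in S1P3-KO, and 3.58 ± 0.44 and 3.43 ± 0.38 in WT mice. The fourth probe set, 97357_at, gave smaller and tighter differences of 1.96 ± 0.12, 2.03 ± 0.17 and 1.84 ± 0.12 in S1P2-KO, S1P3-KO and WT mice. Size therefore depended on the probe set, whereas the direction was the same on all 4. In tissue RNA such as this, fewer cells of a type and less RNA per cell cannot be told apart.

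Igfbp6 had similar medians in the neocortex of the 3 genotypes. Probe set 103904_at had a signal of 3164 to 4630 (median 3946) in S1P2-KO neocortex. The S1P3-KO neocortex arrays read 3989, 3294, 3377, 4319 and 3881. WT neocortex ran between 3368 and 4517 (median 3911). The ranges of the genotypes overlapped almost fully, and the 25 arrays spanned 1.46-fold.

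In hippocampus Igfbp6 had a signal of 852.9 to 1449 (median 1070) in S1P2-KO mice. S1P3-KO hippocampus arrays read 295.9, 1077, 1019, 1190 and 851.6. WT hippocampus ran between 498.4 and 1238 (median 999.1). Single low arrays, S1P3-KO replicate 1 and WT replicate 1, stood apart below the others, and the lowest neocortex array was 2.18-fold above the highest hippocampus array. The regional difference was 1.83 ± 0.13 in S1P2-KO, 2.19 ± 0.19 in S1P3-KO and 1.99 ± 0.13 in WT mice on the log2 scale, or 3.56-fold, 4.57-fold and 3.98-fold. Without S1P3-KO hippocampus replicate 1 the S1P3-KO value was 1.85.

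Tnnc1 was measurable throughout the neocortex and close to the lowest signals of the array in much of the hippocampus. In S1P2-KO neocortex its probe set 101063_at read between 488.0 and 1060 (median 735). The S1P3-KO neocortex arrays read 679.5, 859.0, 749.3, 758.4 and 905.3. WT neocortex ran between 329.5 and 845.7 (median 591.9). These ranges overlapped, and all 5 S1P3-KO arrays lay above the WT median.

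In hippocampus Tnnc1 read between 15.6 and 225.5 (median 95.8) in S1P2-KO mice. The S1P3-KO hippocampus arrays read 28.5, 57.0, 60.6, 40.6 and 19.4. WT hippocampus ran between 20.7 and 198.3 (median 99.65). On 6 of the 25 hippocampus arrays the signal was under the constant of 30.7 added before the logarithm, so the regional fold of Tnnc1 leans on that constant. The difference was 2.65 ± 0.28 in S1P2-KO, 3.52 ± 0.39 in S1P3-KO and 2.36 ± 0.28 in WT mice with 30.7 added. In S1P3-KO mice it was 4.30 with 1 added and 2.64 with 100 added.

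All 6 probe sets of the 3 genes had every neocortex array above every hippocampus array, in each genotype and over all 50 arrays. Such a gap was present in 1.78% of the 8534 probe sets in S1P2-KO, 3.28% in S1P3-KO and 1.66% in WT mice, and in 0.738% (63 probe sets) over all arrays. The share of probe sets called higher in neocortex by limma (adjusted p under 0.05) was 7.09% in S1P2-KO, 6.0% in S1P3-KO and 6.74% in WT mice, and the share called lower was 7.62%, 5.99% and 7.83%. These shares are given for scale, since the same contrast chose the genes. The narrowest margin of the 6 was that of Tnnc1, whose lowest neocortex signal, 329.5, was 1.46-fold its highest hippocampus signal, 225.5.

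**Figure D2:**
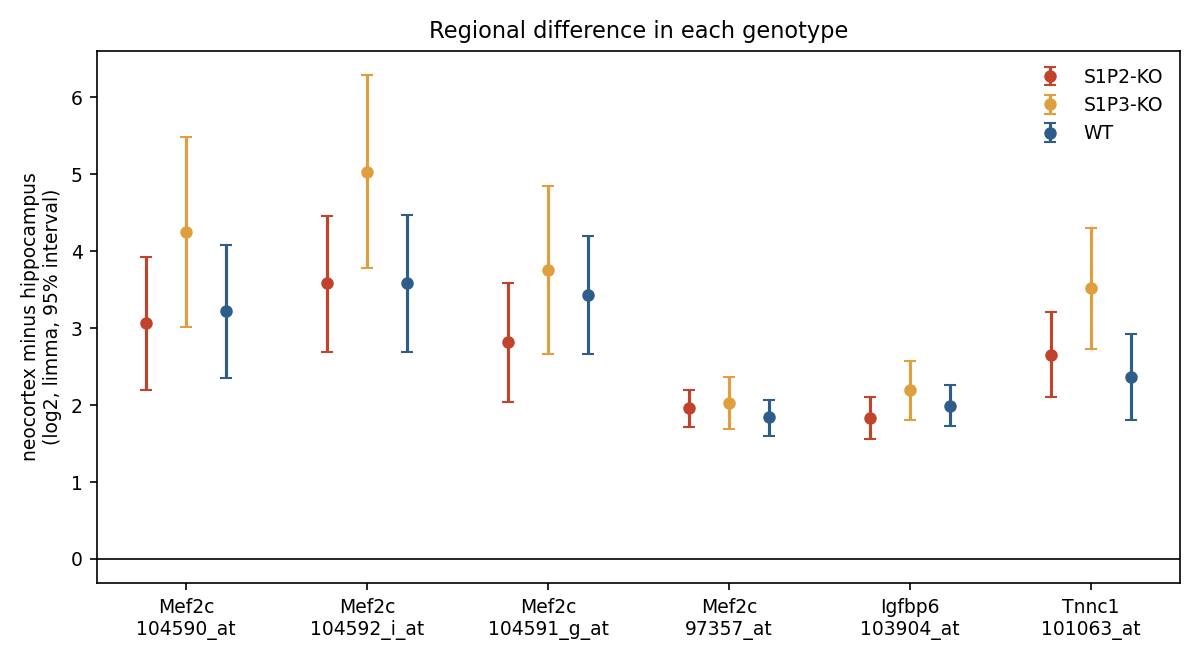
Neocortex minus hippocampus difference on the log2 scale (points, with 95% intervals from limma) for the 6 probe sets in S1P2-KO, S1P3-KO and WT mice. The intervals run from 1.56 at the lowest bound (Igfbp6, S1P2-KO) to 6.29 at the highest (Mef2c 104592_i_at, S1P3-KO). They describe a difference by which the genes were chosen and are not a test.

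The order of the group levels was the neocortex groups first and the hippocampus groups after them for each probe set. By group median, Mef2c 104590_at ran WT neocortex, S1P2-KO neocortex, S1P3-KO neocortex, WT hippocampus, S1P2-KO hippocampus and S1P3-KO hippocampus. Tnnc1 ran S1P3-KO neocortex, S1P2-KO neocortex, WT neocortex, WT hippocampus, S1P2-KO hippocampus and S1P3-KO hippocampus. For Igfbp6 the order was S1P2-KO, WT and S1P3-KO in neocortex and S1P2-KO, S1P3-KO and WT in hippocampus. Neighbours of the same tissue in these orders overlapped in range, and the only step without overlap was that between the tissues.

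The size of the regional difference was then compared between genotypes, a contrast that the choice of genes did not use directly, although WT arrays may be among those that chose them. None of the 6 probe sets passed in limma (0% of 8534 probe sets passed in each of the 3 comparisons, with 222, 438 and 360 at an unadjusted p under 0.05 for S1P2-KO minus WT, S1P3-KO minus WT and S1P2-KO minus S1P3-KO). For Mef2c 104590_at the difference of differences was -0.16 ± 0.61 (95% interval -1.38 to 1.07) in S1P2-KO minus WT and 1.03 ± 0.75 (-0.47 to 2.53) in S1P3-KO minus WT. For Mef2c 97357_at it was 0.12 ± 0.17 (-0.21 to 0.45) and 0.19 ± 0.20 (-0.22 to 0.60). The intervals of the first probe set hold a difference of 1 on the log2 scale in either direction for S1P2-KO, while those of the fourth do not.

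Igfbp6 gave -0.16 ± 0.19 (-0.54 to 0.22) for S1P2-KO minus WT and 0.20 ± 0.23 (-0.27 to 0.66) for S1P3-KO minus WT. Tnnc1 gave 0.29 ± 0.39 (-0.49 to 1.08) for S1P2-KO minus WT. Its value for S1P3-KO minus WT, 1.15 ± 0.48 (0.19 to 2.12), was the one with the smallest p among the members (unadjusted p = 0.0199, limma adjusted p = 0.875). Its parts, S1P3-KO minus WT within each tissue, were a positive estimate in neocortex and a negative one in hippocampus, and neither passed.

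S1P3-KO minus WT neocortex gave negative estimates for Mef2c on 3 of its 4 probe sets, and none passed the threshold. On 104590_at the difference was -0.40 ± 0.10 (fold 0.756, limma adjusted p = 0.15) with 5 of 5 S1P3-KO arrays below the WT median and 3 of them below every WT array. On 104592_i_at it was -0.53 ± 0.12 (fold 0.695, limma adjusted p = 0.0919) with 4 of 5 below every WT array. On 104591_g_at it was -0.50 ± 0.15 (limma adjusted p = 0.231). On 97357_at it was 0.08 ± 0.11 (95% interval -0.15 to 0.31, limma adjusted p = 0.863), with 3 of 5 S1P3-KO arrays above the WT median. The share of all probe sets with as many S1P3-KO arrays below every WT array, or below the WT median, was not counted.

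No probe set of the 8534 passed in that comparison (0%, with 895 at an unadjusted p under 0.05 in limma). One array decided how near Mef2c came: S1P3-KO neocortex replicate 3 read 7467 on 104590_at, against 4632 to 5887 on the other 4. Without it the difference was -0.51 on 104590_at (limma adjusted p = 0.0294) and -0.62 on 104592_i_at (limma adjusted p = 0.0211), both past the threshold. That array was the highest of the S1P3-KO neocortex arrays on both probe sets, so leaving it out could only enlarge the difference. Over all arrays left out in turn, the adjusted p of 104590_at ran between 0.0294 and 0.383. The 3′ to 5′ ratio was 0.21 to 0.36 in S1P3-KO neocortex and 0.30 to 0.48 in WT neocortex. Its part in the result was not tested beyond the fit with that ratio as a covariate, which used the same slope in every genotype. In that fit 104592_i_at gave -0.57 (limma adjusted p = 0.0459). How many of all probe sets passed in that fit, or without single arrays, was not counted.

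S1P2-KO minus WT neocortex gave Mef2c estimates near 0. The differences were -0.09 ± 0.08 on 104590_at (95% interval -0.26 to 0.08), 0.03 ± 0.09 on 104592_i_at, -0.02 ± 0.13 on 104591_g_at and -0.06 ± 0.09 on 97357_at, with limma adjusted p of 0.789, 0.946, 0.981 and 0.892. Here too 0% of probe sets passed, with 746 at an unadjusted p under 0.05. Set against each other, with no WT array involved, S1P2-KO minus S1P3-KO neocortex gave 0.31 ± 0.10, 0.56 ± 0.12, 0.48 ± 0.15 and -0.14 ± 0.11 on these probe sets, with limma adjusted p of 0.696, 0.191, 0.696 and 0.901 (0% of probe sets passed, 506 at an unadjusted p under 0.05). Without S1P3-KO replicate 3 the value of 104592_i_at was 0.66 (limma adjusted p = 0.0497), and without S1P2-KO replicate 7 it was 0.61 (limma adjusted p = 0.0492). How many of all probe sets passed in either fit was not counted.

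Tnnc1 had positive estimates in the neocortex of both knockouts, and neither passed. The difference was 0.33 ± 0.15 in S1P2-KO minus WT (fold 1.25, limma adjusted p = 0.518) with 7 of 10 S1P2-KO arrays above the WT median. It was 0.43 ± 0.18 in S1P3-KO minus WT (fold 1.35, limma adjusted p = 0.409) with 5 of 5 S1P3-KO arrays above it. The share of all probe sets with as many knockout arrays above the WT median was not counted. Both knockouts were set against the same WT arrays (329.5 to 845.7), and S1P2-KO minus S1P3-KO was -0.11 ± 0.18. Igfbp6 differed by -0.01 ± 0.07 (95% interval -0.15 to 0.13) in S1P2-KO minus WT neocortex and by -0.09 ± 0.08 (-0.26 to 0.08) in S1P3-KO minus WT neocortex.

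**Figure D3:**
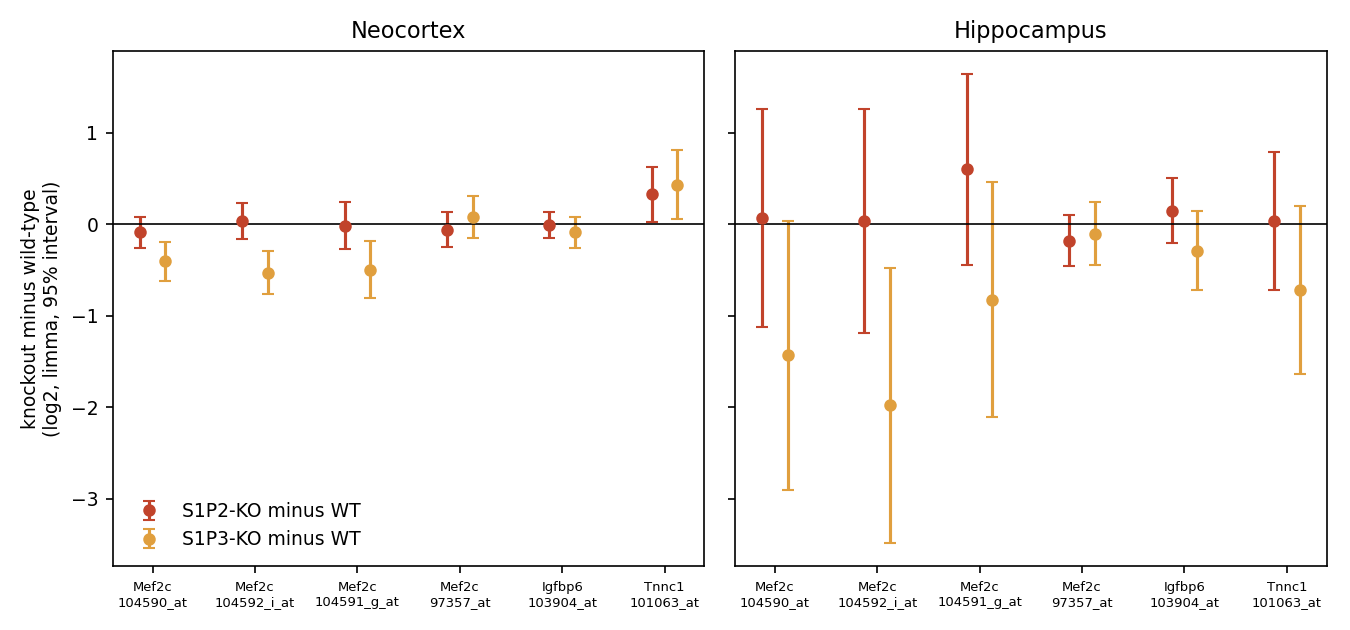
Knockout minus WT difference on the log2 scale (points, with 95% intervals from limma) for the 6 probe sets in neocortex and hippocampus. In neocortex the intervals of the first 3 Mef2c probe sets lie below 0 in S1P3-KO mice (-0.40, -0.53 and -0.50) and that of 97357_at spans 0, and no value passed the adjusted threshold.

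In hippocampus the intervals were several times wider on the first 3 Mef2c probe sets, and on 97357_at by less, with an SE of 0.14 and 0.17 in hippocampus beside 0.09 and 0.11 in neocortex for the S1P2-KO and S1P3-KO comparisons. On 104590_at S1P2-KO minus WT was 0.07 ± 0.58 (95% interval -1.12 to 1.26) and S1P3-KO minus WT was -1.43 ± 0.71 (-2.90 to 0.03, limma adjusted p = 0.528), with 5 of 5 S1P3-KO arrays below the WT median. How many of all probe sets had as many S1P3-KO hippocampus arrays below the WT median was not counted. On 97357_at the same comparisons gave -0.18 ± 0.14 (-0.46 to 0.10) and -0.11 ± 0.17 (-0.45 to 0.24). None of the 6 probe sets passed in either comparison, against 0% of all probe sets in S1P2-KO (473 at an unadjusted p under 0.05) and 0.0352% in S1P3-KO hippocampus (3 probe sets, none of them a member, of which the negative ones were 0.0117%). S1P2-KO minus S1P3-KO hippocampus gave 1.50 ± 0.71 on 104590_at (limma adjusted p = 0.427) and -0.07 ± 0.17 on 97357_at (0% of probe sets passed, 982 at an unadjusted p under 0.05).

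Igfbp6 in hippocampus differed by 0.15 ± 0.17 in S1P2-KO minus WT and by -0.29 ± 0.21 in S1P3-KO minus WT (limma adjusted p = 0.963 and 0.685). Without S1P3-KO replicate 1, its low array, the second value was 0.05. Tnnc1 differed by 0.03 ± 0.37 and -0.72 ± 0.45 (limma adjusted p = 0.997 and 0.617), and the WT median of 99.65 was above each of the 5 S1P3-KO arrays. The share of all probe sets with such an order was not counted. The median 3′ to 5′ ratio was 0.31, 0.42 and 0.39 in S1P2-KO, S1P3-KO and WT hippocampus, and the highest was 1.37, 4.46 and 1.20. In the same order the summed signal of the 7 thalamus markers on the array ran from 5768 to 6820, from 3558 to 6069 and from 4769 to 6446, with none of them under 30.7 on all arrays of a group. That of the 4 choroid plexus markers on the array ran from 604 to 26905, from 700 to 26015 and from 511 to 36934. The part of either marker list in these values was not tested.

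The scatter of Mef2c among hippocampus arrays was shared by 3 of its probe sets and absent from the fourth. Over the 25 hippocampus arrays 104590_at moved with 104592_i_at (Pearson r = 0.92, Spearman rho = 0.93) and with 104591_g_at (r = 0.86, rho = 0.94), each with an adjusted permutation p of 9e-05, from the smallest p that 100000 permutations give. With 97357_at it gave r = -0.36 and rho = -0.31 (adjusted permutation p = 0.209 and 0.337). That probe set stayed between 410.3 and 821.6 on all hippocampus arrays, whereas 104590_at spanned 13.4 to 2017. The deposited table does not say which part of the transcript each probe set reads.

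The 3 scattered probe sets also followed the median signal of the array, a value over all probe sets that differs between arrays although the trimmed mean does not. For 104590_at the correlation over hippocampus arrays was r = 0.72 and rho = 0.65 (adjusted permutation p = 0.00066 and 0.00293), and r = 0.66 without the 2 arrays farthest from the middle of the median signal. Within the 10 S1P2-KO arrays r was 0.91 and rho 0.70, and within the 10 WT arrays r was 0.81 and rho 0.68, while the 5 S1P3-KO arrays are too few for a value. For 97357_at over the 25 arrays it was r = -0.26 and rho = -0.26 (adjusted permutation p = 0.461 and 0.478), and r = -0.45 without the 2 farthest arrays. Within genotypes that probe set gave r = -0.27 and rho = 0.02 in S1P2-KO arrays and r = -0.71 and rho = -0.73 in WT arrays, so its values went the opposite way to those of the other 3 in WT arrays. With the array median as a covariate, a fit chosen after seeing the data, S1P3-KO minus WT hippocampus was -0.64 ± 0.55 on 104590_at, and the regional difference of S1P3-KO mice 3.63 ± 0.47. The array medians ran from 328.8 to 400.2 in S1P2-KO, from 299.6 to 399.0 in S1P3-KO and from 352.8 to 407.4 in WT hippocampus.

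**Figure D4:**
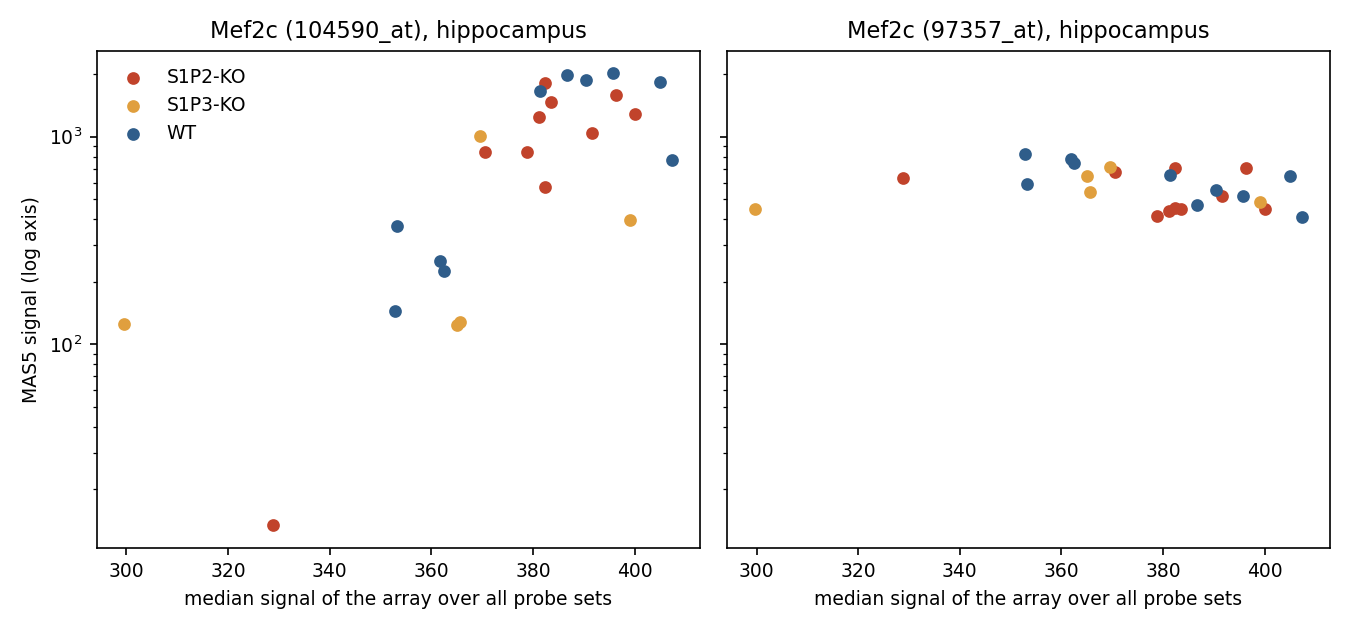
MAS5 signal (log axis) of Mef2c on 104590_at and 97357_at in the 25 hippocampus arrays of S1P2-KO, S1P3-KO and WT mice against the median signal of each array. The first probe set is lowest, at 13.4, on the S1P2-KO array with a median of 328.8, and the second stays between 410.3 and 821.6 throughout.

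With the 3′ to 5′ ratio the same probe set gave r = -0.36 and rho = -0.20 over hippocampus arrays (adjusted permutation p = 0.209 and 0.675), and 104591_g_at gave r = -0.52 and rho = -0.34 (adjusted permutation p = 0.0242 and 0.332). The value of 104591_g_at was r = -0.41 without the 2 arrays of most extreme ratio. Within the 10 S1P2-KO arrays r with the ratio was -0.84 on 104590_at, -0.81 on 104592_i_at and -0.68 on 104591_g_at, beside a rho of -0.03, -0.37 and -0.18. Those arrays include S1P2-KO replicate 7, which had a ratio of 1.37 and a 104590_at signal of 13.4. Within the 10 WT arrays r was -0.47, -0.35 and -0.64 on the same probe sets, beside a rho of -0.14, 0.02 and -0.15. On 104590_at WT replicates 6 and 7 read 250.2 and 225.2 with ratios of 0.261 and 0.319, and WT replicate 4 read 143.9 with 1.198. S1P3-KO replicates 3 and 4 read 124.2 and 127.2 with ratios of 0.416 and 0.515, and S1P3-KO replicate 5 read 124.3 with 4.46. What lowered these signals was not tested. Over the 25 neocortex arrays Mef2c 104590_at followed neither measure (r = 0.07 with the array median and 0.01 with the ratio). Within the 10 WT neocortex arrays r with the ratio was 0.45, 0.62 and 0.52 on 104590_at, 104592_i_at and 104591_g_at (rho 0.45, 0.61 and 0.58). Within the 10 S1P2-KO neocortex arrays it was 0.11, -0.41 and -0.43 (rho 0.04, -0.36 and -0.41). With the array median 104590_at gave r = -0.42 in WT and 0.24 in S1P2-KO neocortex, and none of these within-genotype values was tested. In neocortex Igfbp6 fell with the array median (r = -0.66 and rho = -0.72, adjusted permutation p = 0.00159 and 0.000576, r = -0.64 without the 2 farthest arrays). Within S1P2-KO and WT neocortex that relation of Igfbp6 had r of -0.56 and -0.70. In all, 36 such relations were computed, 18 in each tissue, and p-values were adjusted over them. The median of an array is computed from the same scaled signals, and what moves it was not tested.

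None of the pairs of genes computed within a tissue passed. The pairs used 104590_at for Mef2c, and its other probe sets were not paired with Igfbp6 or Tnnc1. Over hippocampus arrays Mef2c 104590_at gave r = 0.05 and rho = 0.21 with Igfbp6 (r = 0.41 without the 2 arrays farthest from the middle of Igfbp6) and r = 0.25 and rho = 0.06 with Tnnc1, and Igfbp6 gave r = 0.09 and rho = 0.14 with Tnnc1. Over neocortex arrays the same pairs gave r = -0.09, 0.15 and -0.07 and rho = -0.01, 0.18 and -0.09. No pair of genes had an adjusted permutation p under 0.64 for rho.

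Sex was not part of the choice of genes, and none of the 6 probe sets differed between males and females in limma in either tissue, where 0.0586% of probe sets passed (5 in each). Igfbp6 came nearest, with -0.13 ± 0.06 in male minus female neocortex (unadjusted p = 0.0488, limma adjusted p = 0.804). Tnnc1 gave -0.27 ± 0.13 there (limma adjusted p = 0.805). Mef2c 104590_at gave -0.04 ± 0.08 in neocortex and 0.76 ± 0.52 in hippocampus (95% interval -0.31 to 1.83, limma adjusted p = 0.952).

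The genes whose pattern was most like each member were taken by the root mean square difference of log2 levels over the 50 arrays, after each probe set was centred on its own mean. Both tissues entered this measure, so it holds the regional difference by which the members were chosen. Nearness of members to each other, or to other genes high in neocortex, therefore follows in part from that choice. Nearest to Mef2c 104590_at were Kcna1, a voltage-gated potassium channel (1.04), Snw1, a splicing and transcription cofactor (1.04), Tnnc1 (1.12), Cacna1a, the pore of P/Q-type calcium channels (1.13), and Ankrd33b (1.16). Its own other probe sets lay at 0.49, 0.55 and, for 97357_at, 1.38. So the fourth Mef2c probe set was farther from it than each of those 5 genes.

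Nearest to Igfbp6 were Mef2c on 97357_at (0.41), the phosphatase inhibitor Arpp19 (0.44), Tbr1 (0.45), the semaphorin receptor Plxnd1 (0.46) and a probe set annotated as the T-cell receptor segment Trbv1 (0.48). Mean signals of Arpp19 were 3812 ± 673 in neocortex and 1102 ± 208 in hippocampus (SD, n = 25 each), and those of Igfbp6 were 3929 ± 421 and 1012 ± 231. Nearest to Tnnc1 were the Trbv1 probe set (0.73), Igfbp6 (0.77), the atrial myosin light chain Myl4 (0.79), Mef2c 97357_at (0.79) and the exchange factor Ngef (0.80). Myl4, like Tnnc1 a gene known from heart muscle, averaged 1025 ± 306 in neocortex and 126.2 ± 52.9 in hippocampus (SD, n = 25 each), with a WT regional difference of 2.48.

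Of the MEF2 family and its partners, 13 genes besides Mef2c were tested. In WT mice 1 was higher and 2 were lower in neocortex, with a median difference of 0.06 beside -0.006 over all probe sets. Of all probe sets 6.74% were higher and 7.83% lower there (14.6% in either direction). The paralogs Mef2a, Mef2b and Mef2d differed by -0.10 ± 0.10, -0.02 ± 0.13 and 0.06 ± 0.10, with limma adjusted p of 0.567, 0.957 and 0.763. Camk4, a calcium-dependent kinase that activates MEF2 factors, was higher in neocortex by 0.77 ± 0.24 (limma adjusted p = 0.0229). Ppp3ca, the catalytic subunit of calcineurin, was lower by 0.31 on the log2 scale, a difference of -0.31 ± 0.07 (limma adjusted p = 0.00159), and Mapk7, a kinase that phosphorylates MEF2C, gave -0.92 ± 0.23 (limma adjusted p = 0.00292).

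Among 11 genes listed as targets of MEF2 in neurons, 6 were higher and 1 lower in WT neocortex, with a median of 0.49. Of all probe sets 6.74% were higher and 7.83% lower there. The immediate early gene Egr1 was higher by 1.50 ± 0.16 (limma adjusted p = 1.7e-10) and Fos by 1.49 ± 0.29 (limma adjusted p = 0.000153), while Jun was lower, at -1.02 ± 0.10 (limma adjusted p = 2.32e-11). The counts were 6 higher and 1 lower in S1P2-KO and in S1P3-KO mice too. Of all probe sets 7.09% were higher and 7.62% lower in S1P2-KO mice (14.7% in either direction). In S1P3-KO mice 6.0% were higher and 5.99% lower (12.0% in either direction). Kcna1 is both in this list and the gene most like Mef2c 104590_at, with a regional difference of 1.55 ± 0.65 in S1P2-KO, 3.12 ± 0.92 in S1P3-KO and 2.06 ± 0.65 in WT mice (limma adjusted p = 0.109, 0.0183 and 0.023).

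**Figure D5:**
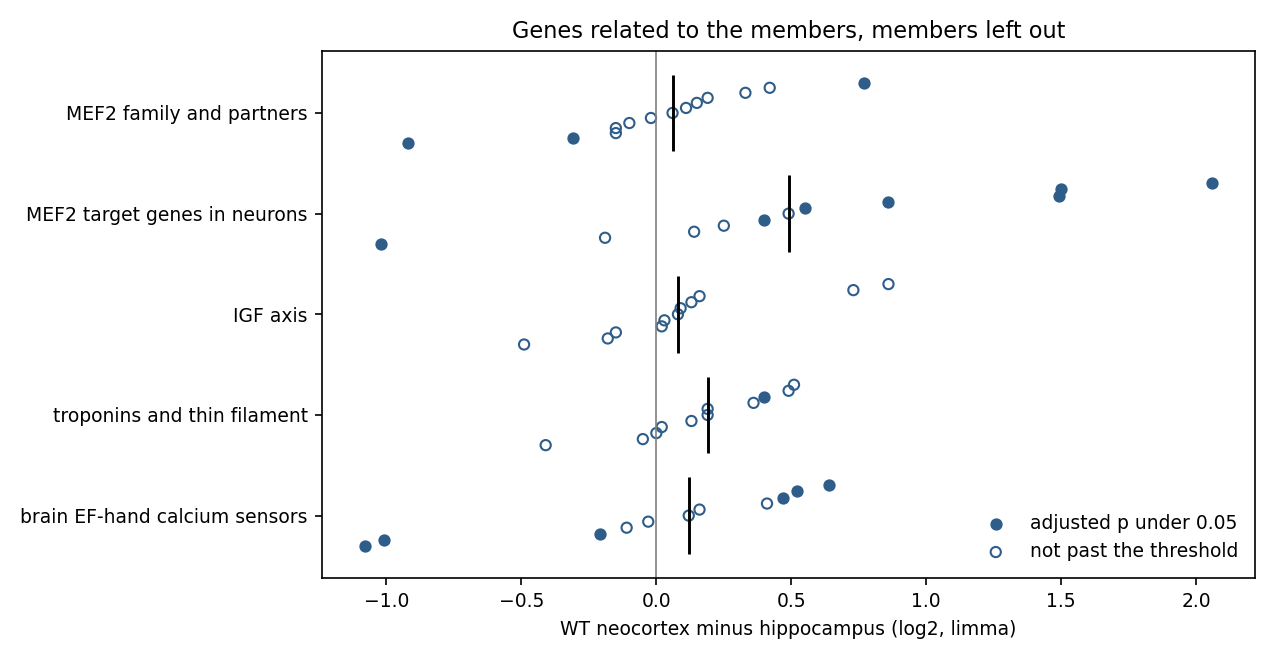
WT neocortex minus hippocampus difference on the log2 scale for the genes related to Mef2c, Igfbp6 and Tnnc1 that were tested (filled points, adjusted p under 0.05 in limma; vertical bars, list medians). The MEF2 target genes have the highest median, 0.49, and the MEF2 family and partners lie around 0.06.

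In the IGF axis, 11 genes besides Igfbp6 were tested and none passed in WT mice by limma, with a median of 0.08. The receptor gene Igf1r had 0.73 ± 0.28 (limma adjusted p = 0.0664), Irs2, an adaptor of insulin and IGF receptors, 0.86 ± 0.46 (adjusted p = 0.226) and Htra1, a protease that cleaves IGF-binding proteins, -0.18 ± 0.09 (adjusted p = 0.176). In S1P2-KO and in S1P3-KO mice 3 of the 11 were higher and 1 was lower, beside 7.09% higher and 7.62% lower of all probe sets in S1P2-KO and 6.0% and 5.99% in S1P3-KO mice. Of these genes Igf1r, Igfbp4 and Grb10 were higher, by 0.78, 0.33 and 0.48 in S1P2-KO and by 1.64, 0.65 and 0.70 in S1P3-KO mice, and Htra1 was lower, at -0.28 and -0.41. No difference between genotypes in the regional value of these genes passed. Igf2, the growth factor that Igfbp6 binds best, differed by -0.10 ± 0.19, -0.07 ± 0.28 and 0.02 ± 0.19 in S1P2-KO, S1P3-KO and WT mice.

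Among troponins and thin filament genes besides Tnnc1, 1 of 11 was higher and none lower in WT neocortex, with a median of 0.19 (6.74% of all probe sets were higher and 7.83% lower there). It was Acta1, skeletal muscle actin, at 0.40 ± 0.12 (limma adjusted p = 0.0175), while Tnnt2, cardiac troponin T, had 0.51 ± 0.19 (adjusted p = 0.0682) and Acta2, smooth muscle actin, -0.41 ± 0.18 (adjusted p = 0.135). The summed signal of the 16 muscle and heart markers, from which Tnnc1 was left out, ran between 4275 and 6503 over all neocortex arrays and between 4028 and 5865 over all hippocampus arrays. Myl3 was below 30.7 on all S1P2-KO and all S1P3-KO neocortex arrays, and the part of muscle RNA in the Tnnc1 signal was not tested. Among 11 brain EF-hand calcium sensors, 3 were higher and 3 lower in WT neocortex, beside the same 6.74% and 7.83% of all probe sets: Hpca, hippocalcin, was at -1.01 ± 0.09 (limma adjusted p = 1.44e-13), Calb2, calretinin, at -1.08 ± 0.11 (adjusted p = 3.46e-11) and Vsnl1, visinin-like protein, at 0.52 ± 0.06 (adjusted p = 2.84e-09). In none of the knockout comparisons was a gene of these 5 lists called.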

How the data were processed

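RNA of the neocortex (25 arrays) and the hippocampus (25 arrays) was measured on 50 Affymetrix arrays. The authors deposited 1 linear intensity per probe set and array, and per the submitters' processing notes these are MAS5 signals, whose version is not given in the sources used here. Per the labels' protocols, 12 µg of TRIzol-extracted RNA was biotin-labelled. No detection calls were used and no further scaling was applied. MAS5 subtracts mismatch signal, which makes low values noisy, and arrays have no read depth, so their number limits the precision.

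From the deposited intensities log2(signal + 30.7) was computed, 30.7 being the 10th percentile of all signals, which understates differences of dim probe sets. Of the 12488 probe sets, 66 controls were removed, and 8534 (6350 genes) whose mean log2 level exceeded the pooled 30th percentile (7.35) were tested. limma 3.58.1 in R 4.3.3 (lmFit, eBayes with trend) was fitted over genotype and sex in each tissue, and over all 50 arrays with a mean per genotype and tissue and sex within tissue, with Benjamini-Hochberg adjustment over all probe sets and a threshold of 0.05. The fits were tested on simulated data. Correlations used 100000 permutations (scipy 1.17.1), two-sided. Intervals are 95%.

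Gene names come from the platform table (10855 with 1 symbol, 396 with several, 1237 with none), and all 6 probe sets of the members matched RefSeq by gene ID. Groups and sexes come from the sample titles. The design text gives the group sizes in another order and names the S1P2-deficient mice in the place of the S1P3-deficient ones, so the titles were followed. P-values measure the spread between these arrays. A gene of a list stands by its probe set of highest mean signal. From each list the 3 genes of smallest p in the WT regional comparison were named, with genes called in a knockout, and for each member the 5 genes of most like pattern. Mef2a, Mef2b, Mef2d, Igf2, Crym, Neurod6 and Tyro3 were named outside that rule, after their values were seen. Members and lists were chosen with earlier results of these data known. Alternatives covered the pseudocount, filter, scaling, covariates, array weights and single arrays. The fit with the array median signal as a covariate was chosen after seeing the data.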

Additional observations from a re-analysis of the deposited data

Results flagged for a closer look

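The lowest or highest array of each of 36 groups (6 probe sets in 6 groups) was set against its nearest neighbour by Dixon's criterion on log2 levels, and 5 lay beyond it, where chance gives about 1 in 20. The 18 differences of the regional value between genotypes gave none that passed.

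S1P2-KO hippocampus replicate 7 was far below the rest of its group for Mef2c, with a signal of 13.4 on 104590_at (next lowest array 571.6) and 12.2 on 104592_i_at (next lowest 186.2). The same array had a 3′ to 5′ log2 ratio of 1.37 and a median signal of 328.8, and its signal on 97357_at, 629.1, lay inside the range of its group. The neocortex array with the same number, S1P2-KO replicate 7, was the lowest of its group on 104590_at at 5193 (next lowest 6374), with a ratio of 0.248.

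Igfbp6 was low on 2 hippocampus arrays. S1P3-KO replicate 1 read 295.9 (next lowest 851.6) with a ratio of 0.403, and WT replicate 1 read 498.4 (next lowest 865.4) with a ratio of 0.392. The part of RNA integrity in these values was not tested.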

How the results depend on the processing

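The regional difference stayed positive for all 6 probe sets in each genotype under every alternative run. For Tnnc1 in S1P3-KO mice it was 4.30 with a pseudocount of 1 and 2.64 with 100, since many hippocampus signals lie near that constant. In the same mice Mef2c 104592_i_at, at 5.03, became 5.67 and 4.27. For Tnnc1 in S1P2-KO mice it was 3.15 and 2.06. For Igfbp6 in S1P3-KO mice it ran from 1.85 (without S1P3-KO hippocampus replicate 1) to 2.35 with single arrays left out. No knockout or sex comparison of a member, and no difference of its regional value between genotypes, passed under an alternative, except Mef2c 104592_i_at in S1P3-KO minus WT neocortex, at -0.57 in the fit adjusted for RNA integrity by the control ratio (adjusted p = 0.0459), and the values without single arrays given for S1P3-KO neocortex replicate 3 and S1P2-KO neocortex replicate 7. How many of all probe sets passed in those fits was not counted. With single arrays left out, 104590_at ran from -0.51 to -0.33 in S1P3-KO minus WT neocortex.

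The sign changes were in estimates that did not pass, and their cause was not tested. The S1P2-KO minus WT regional value of Mef2c 104592_i_at was 0.05 with a pseudocount of 1 and 0.01 with a pseudocount of 100, with median centring and with that adjustment. With the integrity adjustment 104592_i_at also gave -0.01 in S1P2-KO minus WT neocortex and -0.03 in hippocampus, and 104591_g_at gave -0.31 for the S1P3-KO minus WT regional value. With a pseudocount of 1, S1P2-KO minus WT hippocampus was -0.04 on 104590_at and -0.02 on 104592_i_at. Without the arrays of a ratio above 1, 97357_at gave 0.03 for the S1P2-KO minus S1P3-KO regional value and 0.01 for S1P3-KO minus WT hippocampus. With the array median signal as a covariate, chosen after seeing the data, 104591_g_at gave -0.43 for the S1P3-KO minus WT regional value. Male minus female hippocampus of Tnnc1 was -0.02 with a pseudocount of 100, -0.06 with quantile normalization, -0.04 with median centring, -0.08 with array weights, -0.06 with the integrity adjustment and -0.11 with the array median as a covariate, and -0.07 without the arrays of high ratio. The same contrast of 97357_at was -0.01 with quantile normalization, -0.03 with median centring and -0.02 without those arrays, and that of 104591_g_at was -0.01 with array weights and -0.35 with the array median.

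With single arrays left out, the S1P2-KO minus WT regional value ran from -0.61 to 0.14 on 104590_at and from -0.36 to 0.27 on 104592_i_at, and the S1P3-KO minus WT one from -0.10 to 0.71 on 104591_g_at and from -0.14 to 0.36 for Igfbp6. The S1P2-KO minus S1P3-KO one of 97357_at ran from -0.17 to 0. S1P2-KO minus WT neocortex ran from -0.02 to 0.08 on 104592_i_at, from -0.09 to 0.05 on 104591_g_at and from -0.03 to 0.02 for Igfbp6. S1P2-KO minus WT hippocampus ran from -0.23 to 0.52 on 104590_at, from -0.23 to 0.40 on 104592_i_at and from -0.10 to 0.19 for Tnnc1. S1P3-KO minus WT hippocampus of Igfbp6 ran from -0.45 to 0.05, and S1P2-KO minus S1P3-KO hippocampus of 97357_at from -0.14 to 0.02. Male minus female hippocampus ran from -0.12 to 0.10 for Tnnc1 and from -0.02 to 0.07 on 97357_at.

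The replicate numbers were shared by groups and were not taken to pair the arrays, since the labels do not say so. Same-numbered knockout and WT arrays had correlated deviations over 0.1 in 0 of 15 pairs in neocortex and 4 of 15 in hippocampus. The 2 tissues of a genotype and number had them in 13 of 25 (range -0.06 to 0.26, with 8 the best match). Whether those come from the same mouse is not settled by these values, and the SEs of the regional differences treat the arrays as independent. With the number as a replicate block the regional difference of 104590_at was 3.06 in S1P2-KO, 4.25 in S1P3-KO and 3.22 in WT mice. In that fit each block held a neocortex and a hippocampus array, so these estimates could not move and do not bear on the pairing. No member passed in a genotype comparison with a block. There 97357_at gave -0.08 in S1P3-KO minus WT neocortex, 0.02 in S1P2-KO minus S1P3-KO neocortex and 0.04 in S1P3-KO minus WT hippocampus. Limits are 5 S1P3-KO arrays per tissue, a Tnnc1 signal near background in hippocampus, and Mef2c probe sets that differ in scatter there.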
